A study of Mus musculus with 9 samples.

Results

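Bcl11b, Bcl11a, Tbr1, Sox5 and Bhlhe22 encode transcription factors that, with Fezf2, set the fate of cortical projection neurons. They were taken by symbol, as 5 of the 24624 genes in the deposited table, and all 5 were among the 16197 genes tested. RNA was sequenced from the cortex of newborn (P0) mice in 9 libraries, each from a single animal, after poly(A) selection. The pups came from Fezf2+/- mice crossed to Fezf2+/- mice that carried Fezf2-EnR, and the genotypes compared were Fezf2+/+ (3 mice), Fezf2-/- (4 mice) and Fezf2-/-; Fezf2-EnR (2 mice). In the Fezf2- allele a placental alkaline phosphatase reporter sits at the Fezf2 locus. Fezf2-EnR is a bacterial artificial chromosome transgene, used as a single line, in which the Fezf2 promoter region drives the Engrailed repressor domain joined to the FEZF2 DNA-binding domain. It was carried only by animals that also lacked Fezf2. The strain is not given in the sources used here.

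Litters were not spread evenly over the genotypes. The Fezf2+/+ mice came from litters m1 (bc201, bc202) and m2 (bc203), the Fezf2-/- mice from m1 (bc205, bc206) and m3 (bc204, bc207), and the Fezf2-/-; Fezf2-EnR mice from m3 (bc208) and m2 (bc209). Library depth was 18716575 to 25127623 reads in genes. Values below are normalized counts, that is, read counts divided by a size factor for each library. A gene was called when its adjusted p was under 0.05 (limma over all tested genes, Benjamini-Hochberg adjustment). Neurod2 and Neurod6, which mark cortical glutamatergic neurons, were at 5739 to 8600 and 11317 to 15315 normalized counts per library. The cortex is a mixture of cells, so that fewer cells of a type and less RNA per cell cannot be told apart. Its layers were not separated, so opposite changes in different layers can cancel, and a change in a single layer can be diluted.

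Projection neurons of the neocortex fall into classes by the target of their axons. Corticospinal and other subcerebral neurons lie in layer 5, corticothalamic neurons in layer 6, and callosal neurons in upper as well as deep layers. FEZF2 and BCL11B (also called CTIP2) are at high levels in the subcerebral class. FEZF2 is also present in corticothalamic and deep-layer callosal neurons, and BCL11B at low levels in corticothalamic neurons. TBR1 and SOX5 mark the early-born corticothalamic and subplate neurons. BCL11A (CTIP1) is broadly present in projection neurons and acts on both class and areal identity. BHLHE22 (BHLHB5) is a basic helix-loop-helix repressor of postmitotic neurons that is needed for areal identity and for corticospinal axons. These factors are known for restricting each other's expression, with TBR1 and SOX5 acting on Fezf2. Outside the cortex, BCL11B is also abundant in projection neurons of the striatum, which lies directly under it.

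The upstream sequence of Tbr1 is shown because it holds matches to the motif letters of several of the other factors, and that of Bcl11b, the factor whose level varied most between libraries, for comparison. RefSeq (GRCm38.p6) gave a promoter for 4 of the 5 genes, and the 250 bases before each start were searched on both strands for the SOX core AACAAT, the E-box CANNTG of helix-loop-helix proteins, the T-box letters AGGTGT and the BCL11A core TGACCA. The windows lie at chr2:61804203-61804452 on the plus strand for Tbr1 and chr12:108003415-108003664 on the minus strand for Bcl11b. The Tbr1 window is inside the gene as annotated in GENCODE M21, which starts at base 61802930. The Sox5 and Bcl11a windows also lie inside their annotated genes, and the Bcl11b window spans the annotated 5′ end (base 108003602). Matches are in capitals, and both sequences run 5′ to 3′ towards the start.
Tbr1: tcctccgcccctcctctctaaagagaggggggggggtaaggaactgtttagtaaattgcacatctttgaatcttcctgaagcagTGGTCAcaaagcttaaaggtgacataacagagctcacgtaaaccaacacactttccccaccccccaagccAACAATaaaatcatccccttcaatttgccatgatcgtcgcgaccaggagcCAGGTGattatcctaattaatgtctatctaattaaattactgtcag
Bcl11b: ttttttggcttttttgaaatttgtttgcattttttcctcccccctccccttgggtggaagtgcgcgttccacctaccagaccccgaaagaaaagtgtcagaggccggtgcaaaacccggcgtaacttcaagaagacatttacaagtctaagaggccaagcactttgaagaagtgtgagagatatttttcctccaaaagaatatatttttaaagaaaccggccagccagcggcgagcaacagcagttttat
The Tbr1 window holds 1 BCL11A core, 1 SOX core and 1 E-box, whose first bases lie 166, 96 and 46 bases before the start. The Bcl11b and Sox5 windows hold none of the 4 motifs, and the Bcl11a window holds 1 E-box. Among 32841 promoter windows of that length, 11.4% hold TGACCA, 9.43% AACAAT, 66.2% CANNTG and 11.8% AGGTGT. A match is a run of letters only, and binding was not measured here.

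In Fezf2+/+ cortex the 5 genes spanned a wide range of levels. Per kilobase of exon, Bhlhe22 was highest at 2224 normalized counts, followed by Tbr1 at 1145, Bcl11a at 688, Bcl11b at 517 and Sox5 at 278. Fezf2 itself stood at 352, between Bcl11b and Sox5. The lowest Fezf2+/+ library for each gene lay above the highest for the next in that order, so that no neighbours overlapped. All 5 were in the upper part of the tested genes, with 98.1% of genes below Bhlhe22 and 75.0% below Sox5 on the same scale. Bhlhe22 (ENSMUSG00000025128.7) is a single-exon gene of 3344 bases on chromosome 3 (18054174 to 18057517, plus strand, GRCm38). The exons of Sox5 share 9.25% of their bases with the antisense gene Sox5os1, and those of Bcl11a share 2.4% with the antisense gene 4930538E20Rik. Whether strand was used in counting is not given in the sources used here, so reads in those stretches cannot be assigned with certainty.

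The targeted gene followed the labels. Fezf2 was at 1232, 1010 and 979 normalized counts in Fezf2+/+, at 223, 193, 242 and 209 in Fezf2-/- and at 907 and 1001 in Fezf2-/-; Fezf2-EnR. The Fezf2-/- libraries were all far below the others (log2 fold change -2.30 ± 0.10 SE against Fezf2+/+, adjusted p = 1.38e-06, limma). The transgene carries part of Fezf2, so its own transcript can contribute reads in the third group.

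The first comparison asked which of the 5 factors changed in the cortex when Fezf2 was absent. Bhlhe22 fell by 27.0%, and the other 4 did not pass the test. Of all tested genes, 0.858% were called in this comparison, 0.512% higher and 0.346% lower. Groups that did not overlap were seen in 13.0% of all tested genes, and among the 5 in Bhlhe22 only.

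Bhlhe22 was at 7090, 7540 and 7679 normalized counts in Fezf2+/+ and at 4974, 5480, 5681 and 5597 in Fezf2-/-. Each Fezf2-/- library was lower than each Fezf2+/+ library. The log2 fold change was -0.45 ± 0.09 (SE; 95% interval -0.65 to -0.26; n = 4 and 3), with an adjusted p of 0.0432 (limma). This placed Bhlhe22 at rank 126 of the 139 genes called. An exact two-sided permutation test of its log2 values gave p = 0.029, the smallest that 35 splits allow. The size of the fall was steady, but the call was not. The log2 fold change stayed between -0.49 and -0.34 over all alternatives, whereas leaving out any library of either group raised the adjusted p to between 0.0742 and 0.213. With litter as a block it was -0.34 (adjusted p = 0.0856). Within litter m1 alone, Bhlhe22 in the 2 Fezf2-/- mice was at 0.763-fold of the 2 Fezf2+/+ mice (log2 fold change -0.39, adjusted p = 0.0132). In the same libraries 9 markers of GABAergic interneurons, inhibitory cells that migrate into the cortex from the ventral forebrain, summed to 11580 to 12354 normalized counts in Fezf2-/- and 8793 to 9216 in Fezf2+/+. limma and edgeR called none of these 9 markers and DESeq2 called 4, while 8 had an unadjusted p under 0.05. Of all tested genes, DESeq2 called 1.94% and 10.8% had an unadjusted p under 0.05. Sums of 5 oligodendrocyte precursor markers also did not overlap, at 5512 to 5780 in Fezf2-/- against 4849 to 5148 in Fezf2+/+. Of these 5 markers taken singly, 2 did not overlap, beside 13.0% of all tested genes, and 3 had an unadjusted p under 0.05. None of the 5 was called by limma, edgeR or DESeq2. Thalamic sums did not overlap either (698 to 849 against 618 to 663). Prox1 held most of the thalamic sums and overlapped (554 to 699 against 486 to 558). The 1 of 4 tested thalamic markers that did not overlap was Lhx9, at 9.81 to 18.3 against 3.16 to 7.36. The part of these cells in the Bhlhe22 difference was not tested. From the cortical glutamatergic markers, limma called Slc17a6 (log2 fold change 0.59, adjusted p = 0.0367) and Emx1 (-0.44, adjusted p = 0.0296) in Fezf2-/- against Fezf2+/+. From the hippocampal markers it called Dkk3 (-0.71, adjusted p = 0.0466).

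Bcl11b was the most variable of the 5 in Fezf2-/- cortex. Its normalized counts were 4241, 4137 and 4198 in Fezf2+/+ and 5287, 3591, 2821 and 4193 in Fezf2-/-. The Fezf2-/- libraries lay on both sides of the tight Fezf2+/+ values, with a coefficient of variation of 26.2% against 1.25%. The log2 fold change was -0.11 (95% interval -0.49 to 0.26, adjusted p = 0.850, limma), an interval that reaches from 0.712-fold to 1.20-fold. The estimate moved with the litter. Within litter m1 the Fezf2-/- mice were at 0.760-fold of their Fezf2+/+ littermates, without overlap (log2 fold change -0.40, adjusted p = 0.129). Within Fezf2-/-, the 2 mice of litter m3 were higher than the 2 of litter m1 by 0.56 on the log2 scale (adjusted p = 0.151). Leaving out the Fezf2-/- libraries of litter m3 gave -0.40, and leaving out those of litter m1 turned the sign to 0.17. Neither passed the test.

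The libraries with the most Bcl11b were also those with the most striatal marker RNA. The Fezf2-/- library bc204 and the Fezf2-/-; Fezf2-EnR library bc208, both of litter m3, held 5287 and 5909 normalized counts of Bcl11b, the highest of the 9. Of 10 striatal projection neuron markers, 9 were in the table. They summed to 3707 in bc204 and 2669 in bc208, against 1052 to 1808 in the other 7 libraries, and 7 of the 9 had these as their highest libraries. Drd2, the dopamine receptor of indirect-pathway neurons, was at 174 and 102 normalized counts there and at 15.3 to 41.4 elsewhere. Adora2a, an adenosine receptor of the same neurons, was at 368 and 189 against 48.1 to 111 elsewhere. The part of striatal RNA in the Bcl11b values was not tested. Without both libraries Bcl11b had a log2 fold change of -0.26 for Fezf2-/- over Fezf2+/+ (adjusted p = 0.489). For Fezf2-EnR over Fezf2-/- it was then 0.43 (adjusted p = 0.187), the lone Fezf2-EnR library being assumed to vary like the other groups. The other Fezf2-/- library of litter m3, bc207, had the lowest striatal sum (1052) with Bcl11b at 4193, above both m1 libraries of that genotype. That rank rested on Ppp1r1b, at 272 in bc207 and at 856 to 1084 in Fezf2+/+. Without Ppp1r1b the sum in bc207 was 780, above the Fezf2+/+ libraries (724 to 741), and bc209 was lowest at 600. On that sum bc204 (2849) and bc208 (1697) stayed the highest.

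**Figure D1:**
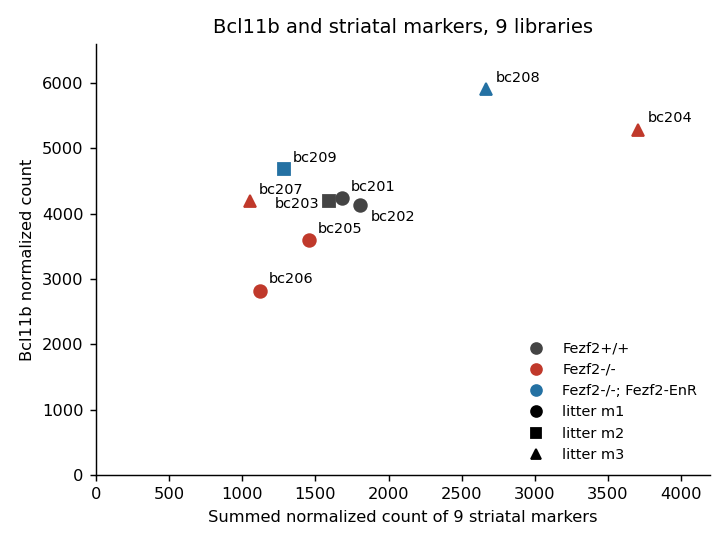
Normalized count of Bcl11b (vertical axis) against the summed normalized count of 9 striatal markers (horizontal axis) in each of the 9 libraries, coloured by genotype and shaped by litter. Libraries bc204 and bc208 stand apart to the upper right, with marker sums of 3707 and 2669 against at most 1808 in the others.

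Tbr1, the T-box factor of layer 6, did not pass the test. It was at 6527, 6254 and 6055 normalized counts in Fezf2+/+ and at 5660, 5864, 6517 and 6783 in Fezf2-/-. The Fezf2-/- libraries lay on both sides of the Fezf2+/+ values. The log2 fold change was -0.02 with a 95% interval of -0.20 to 0.16 (adjusted p = 0.953, limma). That interval runs from 0.872-fold to 1.12-fold for RNA of the whole cortex, and does not bound a change within a layer. Sox5, the SoxD factor that acts on the order in which deep-layer neurons are made, was at 3853, 3848 and 4291 in Fezf2+/+ and at 3141, 3642, 4326 and 4266 in Fezf2-/-. The null libraries again fell on both sides, with a log2 fold change of -0.07 (95% interval -0.35 to 0.22, adjusted p = 0.888). Bcl11a, the close relative of Bcl11b, was at 9745, 8902 and 8554 in Fezf2+/+ and at 7456, 8614, 8245 and 7542 in Fezf2-/-. Only the Fezf2-/- library bc205 reached into the Fezf2+/+ range. Its log2 fold change of -0.19 (95% interval -0.38 to 0.01) did not pass the test (adjusted p = 0.486).

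**Figure D2:**
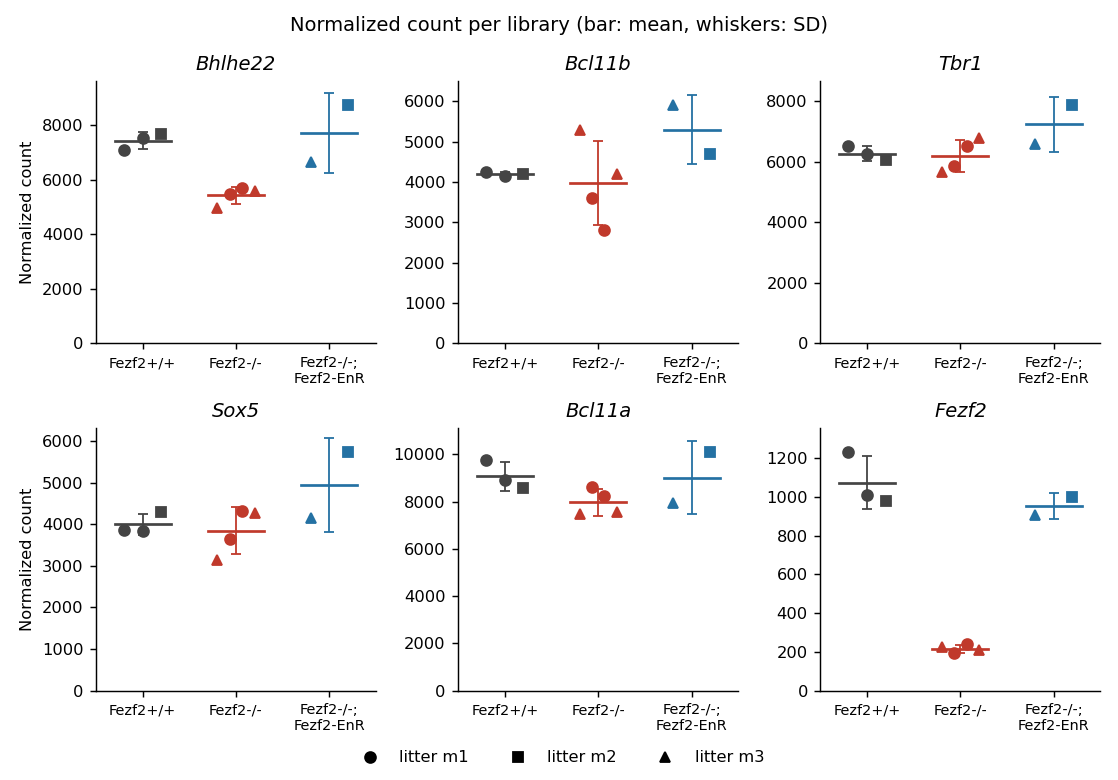
Normalized counts per library of the 5 factors and of Fezf2 in the 3 genotypes, with marker shape for litter, a bar for the mean and whiskers for the SD; each vertical axis starts at 0. Bhlhe22 in Fezf2-/- lies at 4974 to 5681, below every other library, while Bcl11b in Fezf2-/- runs from 2821 to 5287.

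The next comparison asked what the repressor fusion did in cortex without Fezf2. None of the 5 factors was called by limma with Fezf2-EnR over Fezf2-/-, where 0.766% of all tested genes were called, and Bhlhe22 came closest. At an unadjusted p under 0.05, 4 of the 5 passed (Bhlhe22, Sox5, Tbr1 and Bcl11b), beside 16.9% of all tested genes. edgeR and DESeq2 on the recovered reads each called Bhlhe22 alone of the 5, where they called 0.704% and 2.78% of all tested genes.

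Bhlhe22 was at 6664 and 8744 normalized counts in the Fezf2-EnR mice, both above the highest Fezf2-/- library at 5681. Groups that did not overlap were seen in 24.6% of all tested genes. The log2 fold change was 0.49 ± 0.10 (SE; 95% interval 0.27 to 0.71, 1.41-fold), with an adjusted p of 0.0563 (limma). It was 0.0445 with edgeR and 0.000325 with DESeq2. The value moved with the library left out, from 0.30 without bc209 (adjusted p = 0.507) to 0.69 without bc208 (adjusted p = 0.00347). Each of these fits has a lone Fezf2-EnR library, assumed to vary like the other groups. Within litter m3 the Fezf2-EnR mouse was 26.3% above the mean of 2 Fezf2-/- mice. The interneuron markers summed to 10039 and 8891 in the Fezf2-EnR libraries, below all 4 Fezf2-/- libraries. Of the 9 markers, 7 had negative and 2 positive log2 fold changes, 4 did not overlap, and limma, edgeR and DESeq2 called none. At an unadjusted p under 0.05, 5 passed, beside 16.9% of all tested genes. Gad2 (932 and 771) and Dlx5 (251 and 243) lay inside their Fezf2-/- ranges (716 to 950 and 199 to 301). The part of these markers in the Bhlhe22 difference was likewise not tested.

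Sox5 was at 4146 and 5737 in Fezf2-/-; Fezf2-EnR, and Tbr1 was at 6595 and 7888. In both genes bc208 lay inside the Fezf2-/- range and bc209 above every other library. The log2 fold changes against Fezf2-/- were 0.36 for Sox5 (95% interval 0.03 to 0.68, adjusted p = 0.260) and 0.22 for Tbr1 (0.02 to 0.42, adjusted p = 0.262). Without bc209 they were 0.12 and 0.09. Without bc204 and bc208 together, Sox5 was at 0.50 (adjusted p = 0.0438), a fit in which bc209 is the lone Fezf2-EnR library and the other groups supply the spread. Bcl11b was at 5909 and 4686, with a log2 fold change of 0.44 (95% interval 0.02 to 0.87, adjusted p = 0.282). It was 0.73 without the Fezf2-/- libraries of litter m3 (adjusted p = 0.0498) and 0.16 without those of litter m1 (adjusted p = 0.674), and 0.28 to 0.61 when single libraries were left out. Bcl11a was at 7922, inside the Fezf2-/- range, and at 10097, above it, with 0.17 (95% interval -0.05 to 0.39, adjusted p = 0.409).

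The last comparison set the Fezf2-EnR cortices beside Fezf2+/+. None of the 5 was called by limma, edgeR or DESeq2, which called 0.117%, 0.0926% and 3.96% of all tested genes. Bhlhe22 had a log2 fold change of 0.04 (95% interval -0.19 to 0.27, adjusted p = 0.872, limma), its libraries falling on both sides of the Fezf2+/+ values. Bcl11b (0.33), Sox5 (0.29) and Tbr1 (0.20) had positive values and Bcl11a -0.02, with adjusted p between 0.284 and 0.946. These values moved with the library: Bcl11b was 0.16 without bc208 and 0.50 without bc209, Sox5 0.52 and 0.05, and Tbr1 0.33 and 0.07. With litter as a block Bcl11b was 0.06. At an unadjusted p under 0.05 none of the 5 passed, beside 19.3% of all tested genes. In Bcl11b and Tbr1 the 2 groups did not overlap, as was so in 34.6% of all tested genes. These comparisons share libraries, and with 2 Fezf2-EnR animals an exact permutation test cannot go below p = 0.1 here or 0.067 against Fezf2-/-.

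**Figure D3:**
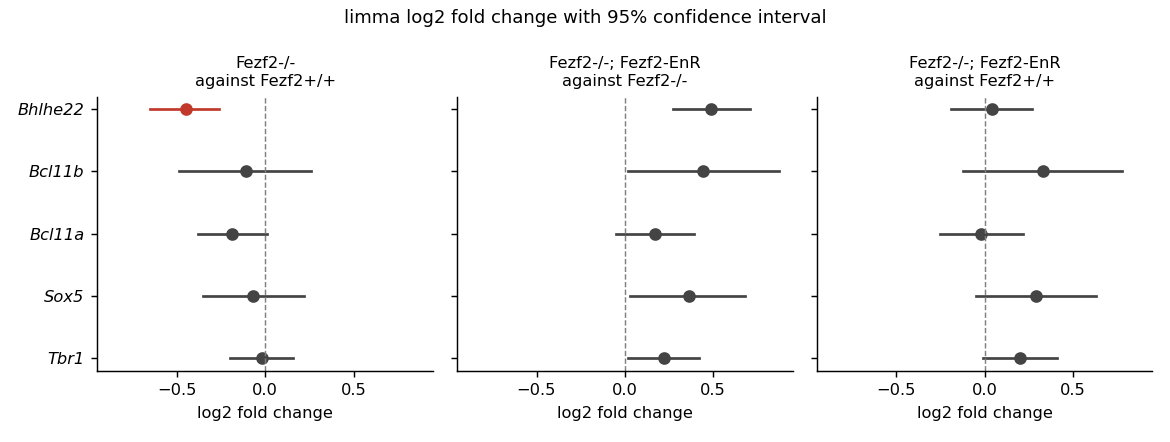
Log2 fold changes of the 5 factors (horizontal axis) in the 3 comparisons, with lines for 95% intervals from limma; red marks the gene called. Bhlhe22 at -0.45 in Fezf2-/- against Fezf2+/+ is the only call, and the intervals of Bcl11b are the widest, reaching from -0.49 to 0.26 in that comparison.

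The library bc209 held the highest level of 4 of the 5 factors, Bcl11b being the exception. That library was also the highest of the 9 for 21.8% of all tested genes, against 7.97% to 13.0% for each of the others. Slc17a7, the vesicular glutamate transporter that rises as projection neurons mature, was at 1271 normalized counts in bc209, the lowest of the 9, and at 2115 to 3945 in the other 8. Eomes, a T-box relative of Tbr1 that marks intermediate progenitors, was at 506 in bc209 and 260 in bc208, against 59.0 to 182 in the other 7. Hippocampal markers summed to 5562 in bc208 and 7087 in bc209, against 4526 to 5146 in the other 7. Zbtb20 held most of these sums, at 3561 and 4460, against 2252 to 3140 in the other 7. Dkk3 on that list was at 1277 in bc208, below the Fezf2+/+ libraries (1671 to 1935), and at 1723 in bc209, inside their range. Wfs1 on that list was at 149 and 96.2, both inside the range of the other 7 (68.8 to 159). Thalamic markers summed to 738 in bc208 and 917 in bc209, the highest of the 9, against 618 to 849 in the other 7. Prox1, which is on both lists, held 801 of the 917. Tcf7l2 and Lef1 on the thalamic list were at 44.8 and 64.5 in bc209, each inside the range of the other 8. The part of these library differences in the Fezf2-EnR values was not tested.

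Across the 9 libraries, Tbr1 and Sox5 went together most closely of the 5 (Pearson r = 0.91 of log2 values), then Bhlhe22 and Bcl11a (r = 0.78). Bcl11b went with none of them, at r between -0.14 and 0.18. These are descriptions over 9 libraries that share genotypes, litters and the high values of bc209. Among 12963 genes with a mean of at least 50, those most like Bhlhe22 were Pde9a (r = 0.984), Kctd12 (0.982) and Ruvbl1 (0.975). Those most like Bcl11b were Fam161b (0.979), Inpp5f (0.939) and Fancb (0.937). For Tbr1 they were Atm (0.976), Wnk3 (0.964) and Uri1 (0.952), for Sox5 Tbc1d30 (0.958), RP23-360J20.1 (0.956) and Arhgef12 (0.945), and for Bcl11a Txnl1 (0.971), Mtif2 (0.970) and Snw1 (0.969).

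Several other regulators of projection neuron identity had larger changes than any of the 5. Of a list of 43 such transcription factors and cofactors, 1 rose, 4 fell and 38 did not pass the test in Fezf2-/- against Fezf2+/+, with a median log2 fold change of -0.09 against 0.0 for all tested genes. DESeq2 called 5 of the 43, and 12 had an unadjusted p under 0.05. Of all tested genes, limma called 0.858% and DESeq2 1.94% there, and 10.8% had an unadjusted p under 0.05. Tle4, a corepressor of corticothalamic neurons, was at 2861, 2642 and 2755 normalized counts in Fezf2+/+ and 978, 977, 820 and 990 in Fezf2-/- (log2 fold change -1.55, adjusted p = 1.27e-05, limma). Zfpm2, a zinc finger cofactor of the same neurons, fell by 1.61 on the log2 scale (adjusted p = 0.000276). Ldb2, a LIM-domain binding cofactor of subcerebral neurons, fell by 0.41 (adjusted p = 0.0361), and Emx1, a homeobox gene of the dorsal telencephalon, by 0.44 (adjusted p = 0.0296). Nr4a2, a nuclear receptor of subplate and claustral neurons, rose by 0.75 (adjusted p = 0.0248). The Bhlhe22 value of -0.45 lies with those of Ldb2 and Emx1.

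With Fezf2-EnR over Fezf2-/-, limma called 4 of the 43 higher and none lower, and the median was 0.15 against 0.003 for all tested genes. edgeR called 4 and DESeq2 13, and 21 had an unadjusted p under 0.05. Of all tested genes, limma called 0.766%, edgeR 0.704% and DESeq2 2.78% there, and 16.9% had an unadjusted p under 0.05. The DESeq2 calls included Nr4a2 (-0.70, adjusted p = 0.000446) and Otx1 (-0.57, adjusted p = 0.00278), both lower. Tle4 was at 2806 and 3664 (log2 fold change 1.77, adjusted p = 2.35e-05), and Zfpm2 rose by 1.72 (adjusted p = 0.000781). Tshz3, a zinc finger factor of deep-layer neurons, rose by 0.68 (adjusted p = 0.0426) and Ldb2 by 0.47 (adjusted p = 0.0395). With Fezf2-EnR over Fezf2+/+ limma and edgeR called none of the 43 and DESeq2 called 4, with 9 at an unadjusted p under 0.05 and a median of 0.09. Of all tested genes, DESeq2 called 3.96% there and 19.3% had an unadjusted p under 0.05. Prdm8, the partner of BHLHE22 in repression, was looked up after its values had been seen. It had log2 fold changes of 0.28 in Fezf2-/- over Fezf2+/+ and -0.10 with Fezf2-EnR over Fezf2-/-, and neither passed the test.

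**Figure D4:**
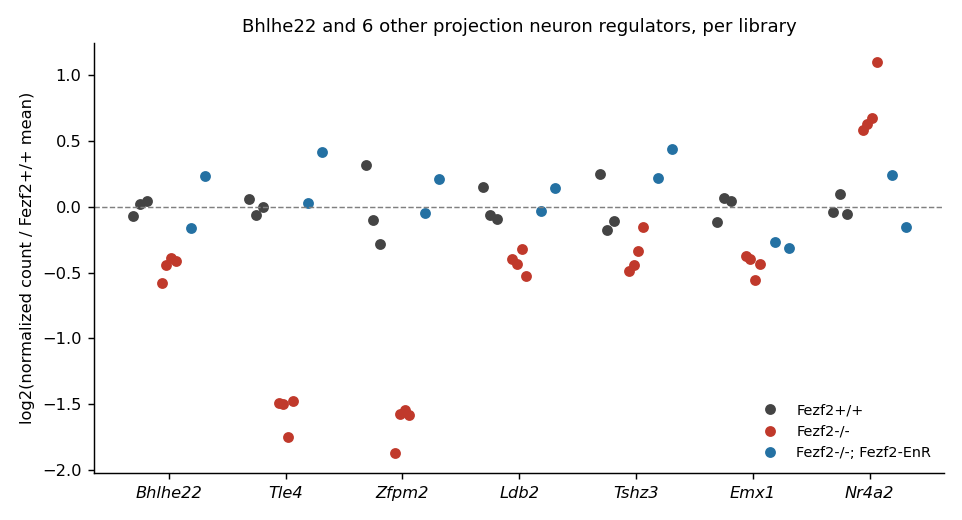
Log2 of the normalized count over the Fezf2+/+ mean (vertical axis) in each library for Bhlhe22 and the 6 called regulators, coloured by genotype. Tle4 and Zfpm2 in Fezf2-/- lie far below 0 and their fitted changes were -1.55 and -1.61, while Bhlhe22, Ldb2 and Emx1 sit at smaller distances (-0.45, -0.41 and -0.44).

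The chromatin complexes in which BCL11A and BCL11B take part showed small differences. None of 26 BAF genes and none of 14 NuRD genes was called in any comparison by limma or edgeR. DESeq2 called 3 BAF genes and 0 NuRD genes in Fezf2-/- against Fezf2+/+, where 5 and 0 had an unadjusted p under 0.05 (1.94% and 10.8% of all tested genes). With Fezf2-EnR over Fezf2-/- DESeq2 called 0 of either, with 6 and 0 at that level (2.78% and 16.9% of all tested genes). With Fezf2-EnR over Fezf2+/+ it called 3 and 0, with 8 and 2 at that level (3.96% and 19.3%). In Fezf2-/- against Fezf2+/+ the BAF values ran from -0.33 (Brd7) to 0.30 (Dpf3) with a median of -0.02, and the NuRD values from -0.12 (Hdac2) to 0.13 (Chd4) with a median of -0.04. With Fezf2-EnR against Fezf2-/- the medians were 0.09 and 0.07. Of 14 relatives of the 5 factors (T-box, SoxD and helix-loop-helix genes) 9 were tested, and the sole call by limma was Eomes, higher with Fezf2-EnR against Fezf2-/- by 1.88 (adjusted p = 0.0426). DESeq2 also called Sox6, a SoxD relative of Sox5, higher in Fezf2-/- over Fezf2+/+ (0.32, adjusted p = 0.0366), and both Sox6 (0.38) and Eomes (1.49) higher with Fezf2-EnR over Fezf2+/+. Genes known to depend on TBR1 were read as a list of 4, which includes Fezf2 itself. Auts2 had a log2 fold change of 0.28 in Fezf2-/- against Fezf2+/+ (adjusted p = 0.112) and Grin2b, a subunit of the NMDA receptor, 0.13 (adjusted p = 0.727), and neither these nor Reln was called in any comparison by limma. DESeq2 called Auts2 higher in Fezf2-/- (adjusted p = 0.0122) and with Fezf2-EnR (0.38, adjusted p = 0.00307), each over Fezf2+/+. Median values were 0.05 in Fezf2-/- against Fezf2+/+ and 0.16 with Fezf2-EnR against Fezf2-/-.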

How the data were processed

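RNA from P0 cortex of 9 mice was sequenced by the authors, and the submitters' processing notes name mm10, STAR, Bowtie and DESeq. The annotation release, the counting tool and versions are not given in the sources used here. The deposited signal values are read counts per gene divided by a size factor for each library. Whole reads were recovered in all 9 libraries (100.0% of values from 20 to 200 were whole multiples of 1 step, tolerance 0.02), 18716575 to 25127623 per library. The step of bc204 (1.0043) and of bc208 (0.9956) is close to 1. log2(value + 1) was tested with limma 3.58.1 in R 4.3.3 (eBayes with a trend, 1 coefficient per genotype, all 9 libraries), over 16197 genes with a mean of at least 10, and p-values were adjusted over all of them. Fold changes are on the log2(value + 1) scale. edgeR 4.0.16 and DESeq2 1.42.0 were run on recovered reads. The fits were tested on simulated data. The 5 genes and the lists were chosen with earlier results of these data known. Genes named from the lists included those called by limma in a comparison, or else up to 3 with the largest change. For each factor the 3 genes with the highest r were named. Further genes of the lists were named to describe the libraries or for a DESeq2 call. Of 24624 identifiers, 24595 matched GENCODE M21 (GRCm38), from which coordinates and exon lengths were taken. Replicates are separate mice.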

Additional observations from a re-analysis of the deposited data

Results flagged for a closer look

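The summed level of 9 striatal projection neuron markers in the Fezf2-/- library bc204, 3707 normalized counts, stood far from the other 3 Fezf2-/- libraries (1052 to 1455): the gap to the nearest of them took 0.848 of the range of the 4, above Dixon's critical value of 0.829. This was the only one of 13 sets of 4 libraries examined (the 5 factors, Fezf2 and the marker lists in Fezf2-/-) to stand out, and chance flags about 1 in 20.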

How the results depend on the processing

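Over the alternatives, the 5 factors gave 350 values, of which 315 kept direction and side of the threshold. The fall of Bhlhe22 in Fezf2-/- kept its sign in all 24 and its call in 13. With 139 genes called in Fezf2-/- against Fezf2+/+, fitting only those 2 groups gave 220, litter m1 alone 239, eBayes without a trend 76 and DESeq2 315, and leaving out a library in turn 66 (without bc201) to 218 (without bc209). The number of the 5 called there was 1, and 0 with litter as a block, without a trend, or without the Fezf2-/- libraries of litter m3 or of m1. Leaving out 1 library gave 0 to 1. With Fezf2-EnR over Fezf2-/- (124 genes), fitting only those groups gave 67, no trend 51, DESeq2 450, no m1 null libraries 40, no bc204 and bc208 788, and leaving out a library 21 (without bc209) to 1085 (without bc208). Of the 5, 0 were called there, but 1 with no filter on low values, edgeR, DESeq2 or no m3 null libraries, 2 without bc204 and bc208, and 0 to 1 leaving out a library. With Fezf2-EnR over Fezf2+/+ (19 genes), a mean of at least 50 gave 10, only those groups 11, litter as a block 32, no trend 12, DESeq2 641, no m3 null libraries 44, no bc204 and bc208 275, and leaving out a library 8 (without bc209) to 492 (without bc208). The cause of these shifts was not tested.

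Signs turned only for values that passed no test. In Fezf2-/- against Fezf2+/+ with litter as a block, Tbr1 was 0.03 and Sox5 0.09, and litter m1 alone put Sox5 at 0.04. Without bc204 and bc208 they were 0.02 and 0.03, and Bcl11b was 0.17 without the m1 null libraries. Leaving out a library gave -0.26 to 0.04 for Bcl11b, -0.06 to 0.02 for Tbr1 and -0.13 to 0.03 for Sox5. With Fezf2-EnR, Bcl11a ran from 0.0 to 0.34 over Fezf2-/- and from -0.19 to 0.16 over Fezf2+/+ when a library was left out, Bhlhe22 from -0.16 to 0.23 over Fezf2+/+, and Bcl11a over Fezf2+/+ was 0.1 with litter as a block and 0.16 without bc204 and bc208. The settings that leave out the null libraries of a litter, or bc204 and bc208, were chosen after seeing the data. No paired analysis was possible because the libraries carry no shared replicate numbers, and litter served as the block instead. The 2 Fezf2-EnR mice limit both comparisons that use them.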
